A study of Mus musculus with 18 samples.

Results

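The 46 genes described here code for surface, cytoskeletal and enzyme proteins that, within brain, are enriched in microglia. They were chosen by name. Transcription factors, the C1q subunits, purinergic receptors and the immunoreceptor signalling genes of microglia were left out of the set. All 46 were found by Ensembl identifier, version dropped, among the 54547 gene identifiers of each library, and all 46 had counts. By the role of the protein they comprise 13 surface proteins, 3 cytokine receptors, 4 transporters or endolysosomal membrane proteins, 13 actin and adhesion proteins, 4 signalling adaptors or G-protein regulators, 7 enzymes or oxidase subunits and 2 others.

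Whole homogenate of medial prefrontal cortex was sampled from mice of the C57BL6/J strain at postnatal day 100, with no transgene or other allele named. The libraries comprised 9 from animals on a control diet and 9 from animals on PLX5622 diet, and they were made by a method that favours the 3' end of transcripts. The treatment text names PLX5622 at 1200 mg/kg from 21 days before an every-other-day drinking procedure with 15% ethanol that ran for 44 days, with tissue taken 24 hours after the last exposure. That text is the same on all 18 samples, controls included, and so leaves unknown which agents a given animal had. The labels name no group without ethanol.

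Microglia are the resident macrophages of the brain parenchyma. Their survival depends on the receptor tyrosine kinase CSF1R, and PLX5622 is an orally available, brain-penetrant inhibitor of that kinase that is used to deplete them. Many proteins that serve as microglial markers are not unique to these cells: border macrophages of the meninges and vessels, and leukocytes of the blood, share the surface receptors, the haematopoietic actin regulators and the phagocyte oxidase. In these bulk samples fewer microglia and less RNA of a gene per cell cannot be told apart.

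Total counts ran from 990136 to 1742680 per library, with a median of 1384979, so that 1 CPM (a count per 1000000 reads of the library) stood for about 1 to 2 reads. Of 24 marker genes of neurons, astrocytes, oligodendrocytes and endothelial cells, 0 were called in the edgeR test used below. In that test 0.353% of all genes were lower and 0.0452% higher, so 0 of 24 does not show these cells unchanged. Of the 24, only the endothelial gene Tek had an unadjusted edgeR p under 0.05 (0.029, at 81.0% of its control mean CPM). Summed oligodendrocyte markers ran from 1187 to 1805 CPM in controls and from 1008 to 2120 CPM with PLX5622. Summed markers of border macrophages (12 genes, 1 of them at 0 in every library) ran from 23.8 to 36.4 CPM in controls and from 2.69 to 11.2 CPM with PLX5622, with Mrc1 at 65 and 7 counts. Summed markers of neutrophils and monocytes (14 genes, none at 0 throughout) stood at 196.5 CPM in control 3, at 20.7 CPM or less in the other 8 controls, and between 4.70 and 32.2 CPM with PLX5622. Their median over 9 libraries was 6.35 CPM in controls and 28.07 CPM with PLX5622. Without control 3 their mean was 10.02 CPM in controls and 20.01 CPM with PLX5622, which is 199.7% of that control level. Over all libraries this sum held 368 counts in controls and 253 with PLX5622. Most of them came from S100a8 (131 and 90) and S100a9 (152 and 91), so the sum says little of the other markers in the list. Summed lymphocyte markers (12 genes, 1 at 0) were 65.9 ± 7.41 CPM in controls and 56.3 ± 6.24 CPM with PLX5622 (SD, n = 9 each), with the T cell gene Cd3e at 2 and 1 counts. The part that any of these cells had in the results below was not tested, beyond the values given without control 3.

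With PLX5622, 45 of the 46 genes had a lower mean CPM than in controls. Fcrls, Crybb1, Ltc4s, Ncf1, Tmem119 and Selplg kept less than 25% of their control level, 29 genes kept less than 50%, and Plxdc2, Coro1a and Blnk kept at least 75%. This residual level, the mean CPM with PLX5622 as a percentage of the mean CPM in controls, ran from 8.55% for Fcrls to 105.7% for Blnk, with a median of 43.2% over the 44 genes with at least 20 control counts. Was and Gpr183 had fewer counts and are listed apart from that order.

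Of the 46, 19 passed the count filter of edgeR and entered its quasi-likelihood test over 11051 genes. There 13 were lower at a Benjamini-Hochberg adjusted p under 0.05, 0 were higher and 6 did not pass, where 0.353% of all tested genes were lower and 0.0452% higher. The fold change was negative in 18 of 19, against 5522 of the 11051 tested genes, and the log2 fold change lay under -1 in 10 of 19, against 0.181%. The median log2 fold change of the 19 was -1.09, and that of all tested genes was 0.00. In 8 of the 19 every PLX5622 library lay below every control library, which held for 0.199% of tested genes. The filter asks for about 10 counts at the median total in 9 libraries. Fcrls, Selplg and Olfml3 met it in the controls alone, with highest PLX5622 levels of 2.74, 7.12 and 6.65 CPM. Their lack of overlap follows from the filter and gives no support, and they also count among the 10 under -1.

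A further 26 were too low for that filter and were compared by an exact two-sided permutation of mean CPM, adjusted over 5415 such genes. Of these, 9 were lower, where 0.572% of the low-count genes were lower, and 0 were higher, where 0.0185% were. All 26 had a lower mean, against 52.9% of the low-count genes, and 20 of 26 reached an unadjusted exact p under 0.05. Only Was, with 7 counts in controls and 2 with PLX5622, had too few reads for either test.

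**Figure D1:**
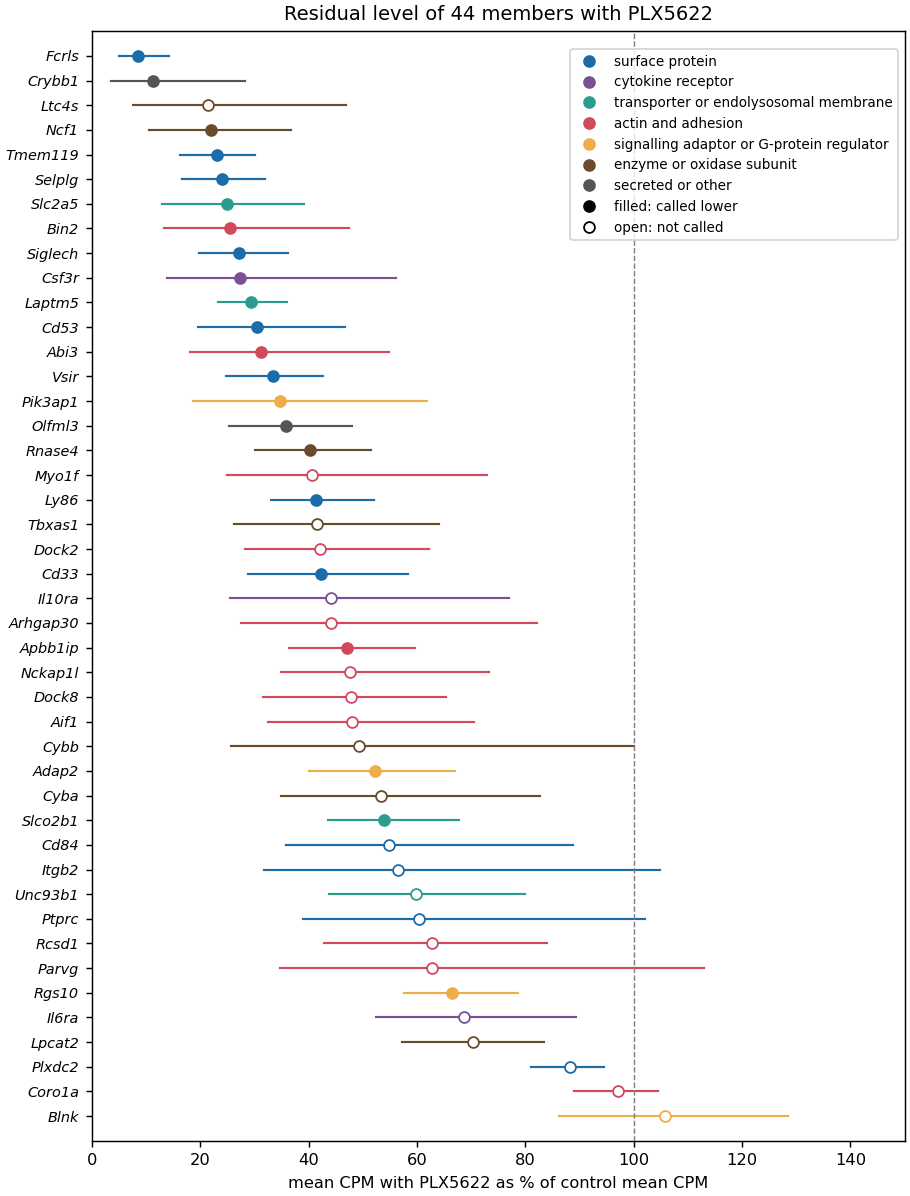
Residual level of the 44 genes with at least 20 control counts, as mean CPM with PLX5622 in percent of the control mean CPM (x axis), coloured by role; bars are 95% exact intervals that cover counting error only, and filled points were called lower by edgeR or by the low-count permutation. The points run from Fcrls at 8.55% to Blnk at 105.7%, and 29 of 44 lie under 50%.

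Of the 13 surface genes, Fcrls held the lowest residual level of the whole set. Of the 7 surface genes tested by edgeR, 6 were lower, and of the 6 tested at low counts, 2 were lower. The median residual level of the 12 ranked surface genes was 37.4%. Fcrls, an Fc receptor-like protein used as a marker of resident microglia, had a lowest, median and highest level of 10.7, 15.1 and 22.8 CPM in controls and of 0, 1.51 and 2.74 CPM with PLX5622. The lowest control library was thus well above the highest PLX5622 library. The means were 16.2 ± 4.43 and 1.39 ± 0.762 CPM (SD, n = 9 each), a log2 fold change of -3.43 ± 0.27 (SE; edgeR adjusted p = 3.4e-17). Fcrls (ENSMUSG00000015852.13) lies on the minus strand of chromosome 3 at 87250758 to 87263738 (GRCm38). The 95% interval of its fitted residual level, 6.42% to 13.4%, lay wholly below those of the other 18 tested genes.

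Tmem119, a membrane protein widely used to tell microglia from other macrophages, ran from 14.4 through a median of 18.7 to 24.0 CPM in controls and from 1.26 through 4.07 to 7.48 CPM with PLX5622. The groups did not overlap. Its residual level was 23.1% and its log2 fold change -2.14 ± 0.20 (SE; edgeR adjusted p = 1.6e-13). Tmem119 (ENSMUSG00000054675.5) lies on the minus strand of chromosome 5 at 113793729 to 113800516. Its neighbour in these annotations, Selplg (ENSMUSG00000048163.13), lies on the same strand at 113818536 to 113832644 and codes for PSGL-1, the ligand of P-selectin. Selplg stood at 14.3, 15.0 and 19.1 CPM (lowest, median, highest) in controls and at 1.53, 3.79 and 7.12 CPM with PLX5622. It had a residual level of 24.0% and a log2 fold change of -2.08 ± 0.20 (SE; edgeR adjusted p = 4.9e-13), close to the values of Tmem119.

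Siglech, a sialic acid-binding lectin that signals through an adaptor, stood at 10.6, 17.0 and 22.8 CPM in controls and at 0.631, 4.99 and 7.26 CPM with PLX5622, again without overlap. Its residual level was 27.2% (log2 fold change -1.87 ± 0.21 SE, edgeR adjusted p = 1.4e-10). Vsir, which codes for the immune checkpoint protein VISTA, ran from 11.96 through 18.2 to 24.3 CPM in controls and from 2.01 through 5.29 to 11.6 CPM with PLX5622. The highest PLX5622 library, number 29, came close to the lowest control. The residual level of Vsir was 33.4% (log2 fold change -1.60 ± 0.20 SE, edgeR adjusted p = 1.7e-08). Ly86, the secreted partner MD-1 of the Toll-like receptor homologue RP105, fell to 41.4% (log2 fold change -1.26 ± 0.17 SE, edgeR adjusted p = 1.5e-07). Its control range of 13.6 to 32.6 CPM met its PLX5622 range of 5.37 to 13.6 CPM in 1 library of each diet.

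Among the surface genes with few reads, the tetraspanin Cd53 had 94 counts in controls and 30 with PLX5622. It ran from 3.94 through 8.58 to 10.6 CPM in controls and from 0.767 through 2.49 to 3.05 CPM with PLX5622. All controls lay above all PLX5622 libraries, and the exact permutation p of 4.1e-05 (adjusted 0.022) is the smallest that 9 against 9 libraries allow. Among the 26 low-count genes only Cd53 and Abi3 were without overlap, which held for 0.185% of all low-count genes. Cd33, an inhibitory sialic acid-binding lectin, had 112 and 48 counts, a residual level of 42.3% and an exact permutation p of 0.00025 (adjusted 0.043).

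The remaining low surface genes did not pass the test. Cd84, a self-binding receptor of the SLAM family, had a residual level of 54.9%. Ptprc, the leukocyte phosphatase CD45, stood at 60.3%, and Itgb2, the shared beta chain of the leukocyte integrins, at 56.6%. Control 3, the library with the highest neutrophil and monocyte markers, held 15 of the 47 control counts of Ptprc and 10 of the 33 of Itgb2. Without that library the residual level was 79.2% for Ptprc, 73.0% for Itgb2 and 61.3% for Cd84. The summed neutrophil and monocyte markers then stood at 199.7% with PLX5622, and their part in these levels was not tested. Gpr183, an oxysterol receptor, had 14 counts in controls and a residual level of 60.8%. Plxdc2, a plexin domain protein, was measured at 94.7, 108 and 146 CPM in controls and at 81.9, 93.8 and 127 CPM with PLX5622. The groups overlapped, with 5 of 9 PLX5622 libraries below the lowest control. Its residual level of 88.3% (fitted 95% interval 79.2% to 96.8%) did not pass the test after adjustment (log2 fold change -0.19 ± 0.07 SE, edgeR adjusted p = 0.49).

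**Figure D2:**
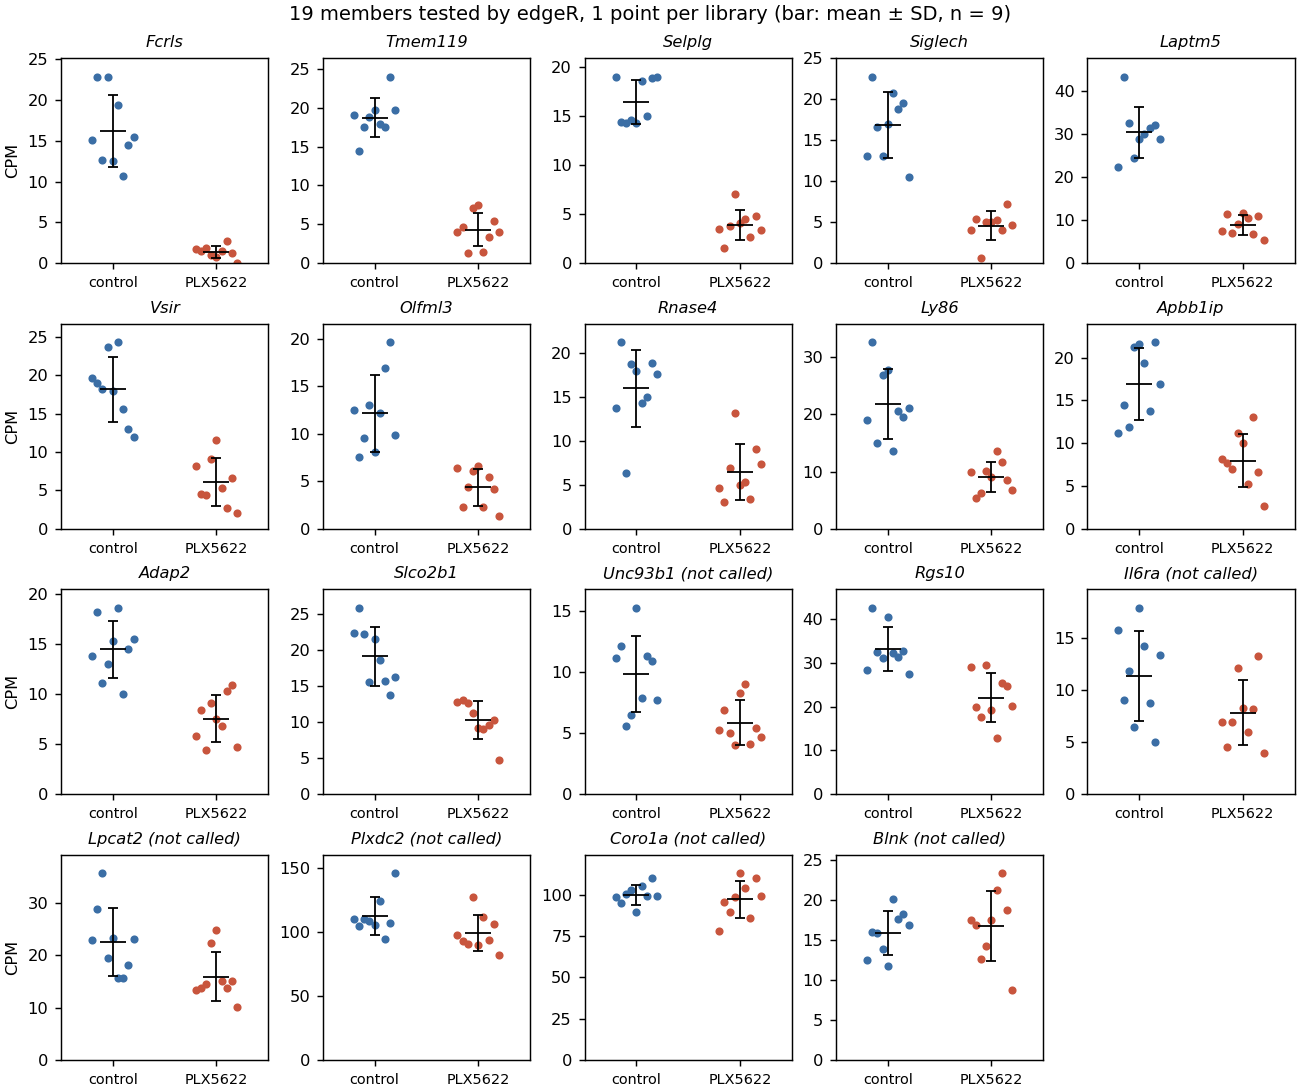
Level of each of the 19 genes tested by edgeR in every library, in CPM, with 9 control and 9 PLX5622 libraries a gene and a bar at the mean of each diet. In 8 genes, among them Fcrls, Tmem119 and Laptm5, all PLX5622 points lie below all control points, while those of Coro1a, Plxdc2 and Blnk overlap.

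Cytokine receptors were measured with few reads. Csf3r, the receptor of granulocyte colony-stimulating factor, had 40 counts in controls and 12 with PLX5622 and was lower (residual level 27.3%, exact permutation p = 0.00016, adjusted 0.039). Of those 40 counts 6 came from control 3, and the residual level without it was 28.7%. Il10ra, the ligand-binding chain of the interleukin-10 receptor, had a residual level of 44.1%, with an exact permutation p of 0.0093 and an adjusted p of 0.36. Il6ra, which binds interleukin-6, passed the edgeR filter at 5.08, 11.9 and 17.9 CPM in controls and 4.03, 6.98 and 13.3 CPM with PLX5622. These ranges overlapped, and the log2 fold change of -0.54 ± 0.21 (SE) did not pass (edgeR adjusted p = 0.54).

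Transporters and endolysosomal membrane proteins were lower in 3 of 4 cases. Laptm5, a lysosomal membrane protein of haematopoietic cells, stood at 22.3, 30.03 and 43.2 CPM in controls and at 5.37, 9.15 and 11.6 CPM with PLX5622. The groups were apart in every library (residual level 29.4%, log2 fold change -1.77 ± 0.15 SE, edgeR adjusted p = 3.7e-15). Control 3 was the highest, and without it the residual level was 31.1%. Slc2a5, the fructose transporter GLUT5, had 75 and 18 counts and fell to 25.0% (exact permutation p = 0.00016, adjusted 0.039). Its control libraries ran from 3.29 to 11.9 CPM and its PLX5622 libraries from 0 to 4.15 CPM.

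Slco2b1, an organic anion transporter, stood at 13.8, 18.6 and 25.8 CPM in controls and at 4.70, 10.3 and 13.04 CPM with PLX5622. The groups did not overlap, although its residual level of 53.8% was among the higher ones (log2 fold change -0.88 ± 0.16 SE, edgeR adjusted p = 0.00043). Unc93b1, which carries nucleic acid-sensing Toll-like receptors to endosomes, had a residual level of 59.8% and did not pass (log2 fold change -0.74 ± 0.21 SE, edgeR adjusted p = 0.14).

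The actin and adhesion genes were the most numerous with few reads. Of 2 tested by edgeR, 1 was lower, and of 10 tested at low counts, 2 were lower. The median residual level of the 12 ranked genes was 47.3%. Apbb1ip codes for RIAM, which links the small GTPase Rap1 to integrin activation. It stood at 11.2, 16.9 and 21.8 CPM in controls and at 2.69, 7.67 and 13.01 CPM with PLX5622. Its residual level was 47.1% (log2 fold change -1.09 ± 0.19 SE, edgeR adjusted p = 8.2e-05), with 7 of 9 PLX5622 libraries below the lowest control. Abi3, an adaptor of the WAVE complex that drives branched actin, had 57 and 19 counts and no overlap between diets (residual level 31.3%, exact permutation p = 4.1e-05, adjusted 0.022). Of its control counts 13 came from control 3, and the residual level without it was 36.1%. Bin2, a membrane-bending protein of podosomes, had 52 and 14 counts and fell to 25.6% (exact permutation p = 0.00012, adjusted 0.033).

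Another 8 low-count actin genes had lower means without passing the exact permutation test after adjustment. Aif1, whose product Iba1 is the usual antibody target for microglia, had 84 and 42 counts. It ran from 3.63 through 5.63 to 10.5 CPM in controls and from 0 through 3.32 to 5.05 CPM with PLX5622. Its residual level was 48.1%, with an exact permutation p of 0.0014 that was 0.14 after adjustment. The motor protein gene Myo1f stood at 40.6%, the Rac activator Dock2 at 42.05%, and Dock8, which activates Cdc42, at 47.9%. Arhgap30, a GTPase-activating protein, stood at 44.2%. Nckap1l, the haematopoietic HEM1 subunit of the WAVE complex, stood at 47.6%, Rcsd1, an actin capping protein regulator, at 62.7%, and the parvin Parvg at 62.8%.

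Coro1a, coronin 1A, binds filamentous actin and is described in leukocytes and in neurons. It stood at 89.7, 99.2 and 110 CPM in controls and at 78.0, 98.7 and 113 CPM with PLX5622. No control library lay above the highest PLX5622 library, and the difference did not pass (residual level 97.2%, log2 fold change -0.05 ± 0.07 SE, edgeR adjusted p = 0.96). The 95% interval of the fitted residual level of Coro1a was 88.0% to 106.0%.

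Of the signalling adaptors and G-protein regulators, Rgs10 and Adap2 were lower in the edgeR test. Rgs10, which speeds the shut-off of Gi-coupled signalling, stood at 27.4, 32.2 and 42.5 CPM in controls and at 12.8, 20.1 and 29.5 CPM with PLX5622. It kept 66.5% of its control level, the highest residual level among the 13 genes that edgeR called (log2 fold change -0.58 ± 0.12 SE, edgeR adjusted p = 0.0056). Adap2, an ArfGAP with PH domains, kept 52.3% (log2 fold change -0.94 ± 0.18 SE, edgeR adjusted p = 0.0013). Pik3ap1, the adaptor BCAP of phosphoinositide 3-kinase, had 47 and 17 counts and a residual level of 34.8% (exact permutation p = 0.00029, adjusted 0.049).

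Blnk, an adaptor known from B cell receptor signalling, was the only one of the 46 with a higher mean under PLX5622. It stood at 11.7, 15.9 and 20.02 CPM in controls and at 8.73, 17.4 and 23.3 CPM with PLX5622, and only 1 PLX5622 library lay below the lowest control. The difference did not pass (log2 fold change 0.07 ± 0.15 SE, edgeR adjusted p = 0.98), and its 95% interval, 85.0% to 129.8% of the control level, lay wholly above that of Rgs10.

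Enzymes and oxidase subunits covered lipid mediators, the phagocyte NADPH oxidase and an RNase. Rnase4, a secreted ribonuclease, stood at 6.35, 17.6 and 21.2 CPM in controls and at 3.07, 5.29 and 13.2 CPM with PLX5622. It fell to 40.3% (log2 fold change -1.33 ± 0.20 SE, edgeR adjusted p = 4.8e-06), with 8 of 9 controls above the highest PLX5622 library. The annotated gene Ang overlaps 72.0% of its span on the same strand, so its counts may cover only part of its transcripts. Lpcat2, which makes platelet-activating factor and phosphatidylcholine, stood at 15.7, 23.0 and 35.7 CPM in controls and at 10.1, 14.5 and 24.9 CPM with PLX5622. The fall to 70.4% did not pass (log2 fold change -0.53 ± 0.16 SE, edgeR adjusted p = 0.16). Without PLX5622 library 29, in which Lpcat2 was highest, it passed (log2 fold change -0.63, edgeR adjusted p = 0.033).

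Ltc4s, leukotriene C4 synthase, had 33 and 7 counts and a residual level of 21.5%, but did not pass (exact permutation p = 0.0012, adjusted 0.13). Tbxas1, thromboxane A synthase, stood at 41.6% (exact permutation p = 0.0012, adjusted 0.13), and without control 7, the lowest control, its adjusted p was 0.030. Among 15 other genes of eicosanoid synthesis and breakdown, 1 of 7 tested by edgeR was lower, the cyclooxygenase Ptgs1 (log2 fold change -0.53 ± 0.12 SE, edgeR adjusted p = 0.016). Of 5 tested at low counts, 3 were lower. These were the prostaglandin D synthase Hpgds with 153 and 48 counts, the prostaglandin-degrading enzyme Hpgd with 126 and 51, and the 5-lipoxygenase partner Alox5ap with 43 and 10.

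The oxidase makes superoxide in phagocytes. Its cytosolic organiser Ncf1 had 66 and 14 counts and was lower (residual level 22.0%, exact permutation p = 0.00012, adjusted 0.033). Its membrane subunits did not pass: Cybb stood at 49.4% (exact permutation p = 0.31, adjusted 0.93) and Cyba at 53.4% (p = 0.0084, adjusted 0.35). Of the control counts, 16 of 66 for Ncf1, 12 of 28 for Cybb and 15 of 64 for Cyba came from control 3. Without control 3 the residual level was 26.0% for Ncf1, 78.7% for Cybb and 62.6% for Cyba, beside 199.7% for the summed neutrophil and monocyte markers. Leaving out any 1 library gave 17.8% to 26.0% for Ncf1, 35.7% to 78.7% for Cybb and 49.8% to 62.6% for Cyba. Of 8 other oxidase genes, 0 of 1 tested by edgeR and 0 of 5 tested at low counts changed, where 0.353% and 0.572% of all genes so tested were lower. Among these 8, the leukocyte GTPase Rac2 had 22 and 13 counts.

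The other 2 genes code for Olfml3, a secreted olfactomedin-like protein, and Crybb1, a beta crystallin best known from the lens. Olfml3 stood at 7.59, 12.2 and 19.6 CPM in controls and at 1.34, 4.42 and 6.65 CPM with PLX5622. Its groups did not overlap (residual level 35.9%, log2 fold change -1.49 ± 0.23 SE, edgeR adjusted p = 4.8e-06). Crybb1 had 43 and 5 counts, and the residual level of 11.3% was the second lowest in the order. It ran from 1.31 through 3.58 to 6.27 CPM in controls and from 0 through 0 to 1.37 CPM with PLX5622, and 8 of 9 controls lay above every PLX5622 library (exact permutation p = 8.2e-05, adjusted 0.028).

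The calls differed in how firmly they stood. All 13 edgeR calls were also made by DESeq2, by limma-voom (0.371% of genes lower) and by edgeR without the count filter, and none ended when any 1 of the 18 libraries was left out. Each of the 9 low-count calls ended without at least 1 library. With a control left out, 6 to 8 calls remained in number, and with a PLX5622 library left out, 0 to 3. The calls of Crybb1, Ncf1, Bin2, Cd33 and Pik3ap1 ended without any 1 of the 9 PLX5622 libraries (highest exact permutation adjusted p 0.079, 0.11, 0.11, 0.11 and 0.11). That of Cd53 ended without number 26, 28, 32 or 35 (up to 0.056), that of Abi3 without any but 31 and 34 (up to 0.079), that of Csf3r without any but 34 (up to 0.081) and that of Slc2a5 without any but 29 (up to 0.089). Leaving out a control ended the calls of Cd33 (any but 2 and 4, up to 0.061), Pik3ap1 (any but 3, up to 0.078) and Slc2a5 (control 9, 0.052). Why fewer calls remained without a PLX5622 library than without a control was not tested. edgeR without the filter (0.565% of 16466 genes lower) called 14 of the 26 low-count genes, all 9 among them, and DESeq2 (0.359% of 18125 genes lower) called 7 of the 9, with Csf3r and Pik3ap1 the exceptions.

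Among themselves the residual levels formed a graded order in which most neighbours could not be separated. In the edgeR fit Fcrls stood apart. The interval of Tmem119 (17.2% to 29.9%) overlapped those of Selplg, Siglech and Laptm5, and Rnase4 was the first gene of the order to lie wholly above it. The interval of Laptm5 (23.7% to 36.1%) lay wholly below that of Apbb1ip. At the upper end the interval of Rgs10 (56.6% to 79.5%) overlapped that of Plxdc2 (79.2% to 96.8%) by a narrow margin. Between animals, the counts of the 19 tested genes spread slightly more than counting error: the chi-square per degree of freedom had a median of 1.34 in controls and 1.45 with PLX5622.

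Summed over all 46 genes, the level ran from 607.8 to 743.5 CPM in controls and from 312.9 to 463.8 CPM with PLX5622, without overlap. The means were 650.8 ± 40.8 and 393.1 ± 51.2 CPM (SD, n = 9 each), so that 60.4% remained. Coro1a, Plxdc2 and Blnk, singled out after their values were seen, gave 35.2% of this sum in controls and 54.5% with PLX5622. Without them the remaining 43 genes summed to 422.8 ± 46.5 CPM in controls and 180.1 ± 33.8 CPM with PLX5622, and 42.6% remained. Control 3 was the highest control in both sums, and PLX5622 library 35 the lowest with PLX5622. Library 35 was also the lowest PLX5622 library in 10 of the 19 tested genes, and it had the lowest summed border macrophage markers, 2.69 CPM. Of 20 other microglial genes, 13 of 14 tested by edgeR were lower, with a median log2 fold change of -1.26, and 3 of 4 tested at low counts were lower.

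Most of the cytoskeletal and transporter genes have relatives that many brain cells express, and 15 of the 46 were set beside such a relative. The residual levels of the 15 relatives ran from 91.7% (Bin1) to 114.7% (Coro1c). In 10 of the 15 pairs the 95% interval of the microglia-enriched gene lay wholly below that of its relative. Its interval comes from the edgeR fit where the gene was tested and otherwise from counting error alone. Slc2a5 stood at 25.0% beside 111.4% for the glucose transporter Slc2a1, Abi3 at 31.3% beside 101.6% for Abi1, and Nckap1l at 47.6% beside 98.5% for Nckap1. Lpcat2, with an interval of 55.8% to 85.9%, lay below Lpcat1, with 95.7% to 121.2%. The intervals met for Was and Wasl, Parvg and Parva, Itgb2 and Itgb1, Plxdc2 and Plxdc1, and Coro1a and Coro1c. Of 36 widely expressed relatives in all, 35 were tested and 0 changed in the edgeR test (3 at an unadjusted p under 0.05, 0 by DESeq2), with a median log2 fold change of -0.01. Over all genes in that test 0.353% were lower and 0.0452% higher.

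**Figure D3:**
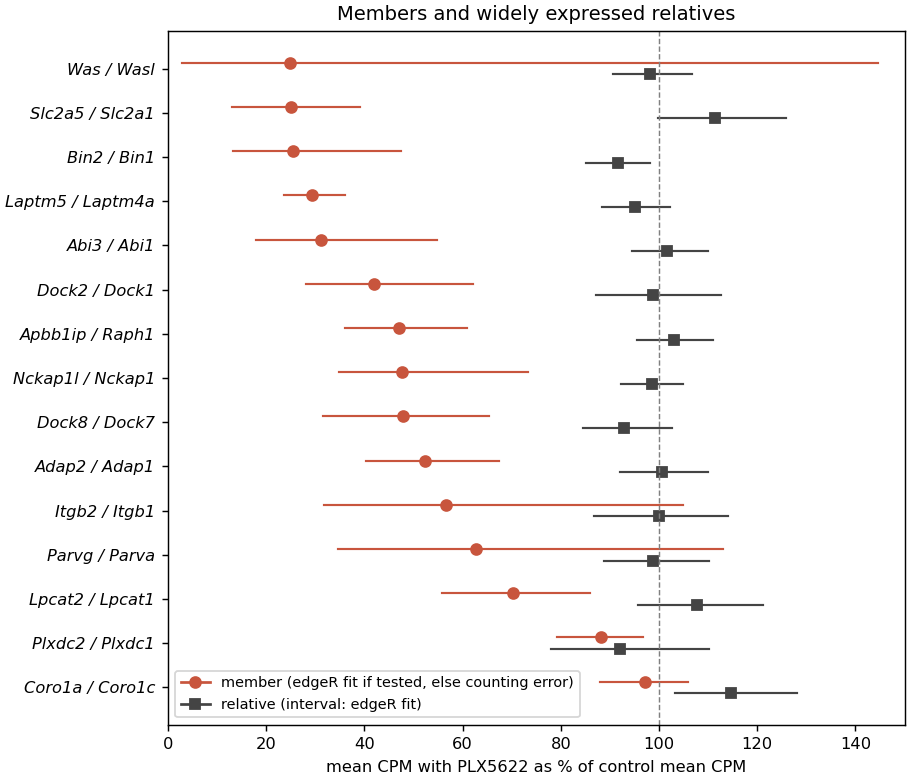
Residual level in percent of the control mean CPM for 15 genes of the set (circles, with 95% intervals of the edgeR fit where tested and of counting error otherwise) and for a widely expressed relative of each (squares, with 95% intervals of the edgeR fit). The relatives sit between 91.7% and 114.7%, while 10 of the 15 circles have intervals wholly below that of the relative.

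Among 20 other leukocyte actin and integrin genes, 0 of 7 tested by edgeR changed (2 at an unadjusted p under 0.05). Over all genes in that test 0.353% were lower and 0.0452% higher. Of 11 tested at low counts, 1 was lower, against 0.572% of low-count genes. This was the Rac activator Vav1, with 53 and 14 counts (residual level 22.9%, exact permutation adjusted p = 0.028). All 11 had a lower mean, up to 88.3% for Lsp1, so a lower mean was not particular to the set. Arhgap45 at 37.5% and Fermt3 at 39.7% came close to passing (exact permutation adjusted p = 0.052 and 0.063). Itgam, the alpha chain that pairs with Itgb2 in microglia, was listed at 0 in every library and is overlapped along its whole span on its strand, so its 0 does not show a silent gene.

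The promoters of the set were searched for the purine-rich motif bound by the myeloid factor PU.1. RefSeq promoter windows (GRCm38.p6, 250 bases before to 50 after the start) were found for 36 of the 46. GAGGAAG, or its reverse complement CTTCCTC, was present in 12 of 36 genes (33.3%), against 15.4% of 27025 genes. The longer AGAGGAAG was present in 7 (19.4%, against 5.22%), GAGGAAGT in 4 (11.1%, against 3.69%) and the core GGAAGT in 20 (55.6%, against 26.5%). These strings, each counted on both strands, overlap each other and were chosen after values were seen. TATAAA, set beside them, was present in 6 (16.7%, against 15.7%). The windows below belong to the 8 genes with GAGGAAG that were called lower, and are shown so that the setting of each match can be read. Each gives 30 bases, 5' to 3' on the strand of the gene, with the match in capitals.
Fcrls: aagtctgtaaaGAGGAAGgacgtttgcttt
Csf3r: ctccttcctgaGAGGAAGgggctgtctatg
Laptm5: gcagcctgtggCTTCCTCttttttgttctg
Cd53: actcagtctcaCTTCCTCactcttctcgct
Pik3ap1: ctgcccggcagGAGGAAGcgccagagtcgc
Cd33: cagtggaatggGAGGAAGccacaaagaaga
Apbb1ip: ggctcaaagcaCTTCCTCctccctgagccc
Slco2b1: agtccatgaggGAGGAAGtgactcatcttc

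Starts are those of RefSeq, and the windows of Fcrls, Csf3r, Laptm5, Cd33 and Apbb1ip lie wholly within the GENCODE span of the gene, while the other 3 cross its 5' end. The window of Fcrls is chr3:87263650-87263679 on the minus strand, and its match begins 144 bases before the start. That of Csf3r is chr4:126024562-126024591 on the plus strand, 86 bases before, and that of Laptm5 is chr4:130913266-130913295 on the plus strand, 39 bases before. The matches of Cd53 (chr3:106790124-106790153, minus strand), Apbb1ip (chr2:22774322-22774351, plus strand) and Slco2b1 (chr7:99711316-99711345, minus strand) begin 6 or 7 bases after the start. Pik3ap1 (chr19:41385095-41385124, minus strand) has its match 11 bases before the start, and Cd33 (chr7:43533379-43533408, minus strand) 226 bases before. A further match of Slco2b1, 226 bases before another RefSeq start (chr7:99696017-99696046), is not printed. The residual levels of these 8 genes ran from 8.55% to 53.8%, a range that follows from picking genes called lower. The other genes with the motif, Ltc4s, Tbxas1, Dock2 and Parvg, were not called and are not printed. They stood at 21.5%, 41.6%, 42.05% and 62.8%. Whether the motif goes with a lower residual level was not tested. Tmem119 and Selplg, with residual levels of 23.1% and 24.0%, are not among the 12 genes with the motif. No binding was measured here, and a match in letters is not a bound site.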

How the data were processed

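The 18 libraries hold whole-number read counts per gene over 54547 Ensembl identifiers, as deposited by the authors, 1 table a library. Tools named in the submitters' processing notes are Bowtie2 (version 2.3.4.3) and HTSeq (version 0.11.0), then FastQC (version 0.11.8), R (version 3.5.1) and DESeq2 (version 1.10.1), with builds mm10 and GRCm38.p6. What each tool did, the strand setting, the annotation release and any duplicate removal were not given in the sources used here. An abbreviation in the table names is not explained by the labels.

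The 46 genes, their role groups and the other lists were chosen with earlier results of these data known. Identifiers were matched to GENCODE M21 (53706 of 54547; the other 841 held 0.0278% of counts). edgeR 4.0.16 (R 4.3.3) was run on all 18 libraries, with filterByExpr, TMM scaling, the robust form of its quasi-likelihood test, and a threshold of 0.05 after Benjamini-Hochberg adjustment. Genes that failed the filter but had at least 15 counts were compared by exact permutation of mean CPM over all 48620 assignments. CPM are counts per 1000000 of the library total times its TMM factor. Diets come from the titles. Animals are taken as separate by their numbers, but the labels give no cage, litter or session, so p-values measure the spread between these libraries. Every member is named; of the other lists, genes with the smallest p or a set relative. Some genes that this rule names are not reported here. Alternatives were DESeq2 1.42.0, limma-voom (limma 3.58.1), other scalings, filters and thresholds, and leaving out each library. Exact intervals (95%, Clopper-Pearson on counts summed over the libraries of a diet) cover counting error only and leave out the spread between animals. PCR duplicates are not known to have been removed, and these intervals do not allow for them. Intervals of a fitted residual level, and those of the relatives, come from the edgeR fit.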

Additional observations from a re-analysis of the deposited data

Results flagged for a closer look

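Among 40 groups of 9 libraries (the 19 tested genes and the summed level, in each diet), 5 held a library far from the other 8. Chance gives about 1 in 20. Siglech was lowest in PLX5622 library 27, at 0.631 CPM, with the next library at 4.07 CPM. Slco2b1 was lowest in PLX5622 library 35, at 4.70 CPM, with the next at 9.06 CPM. Laptm5 was highest in control 3, at 43.2 CPM, with the next at 32.5 CPM. Rnase4 was lowest in control 4, at 6.35 CPM, with the next at 13.8 CPM. The summed level of the 46 genes was highest in control 3, at 743.5 CPM, with the next at 664.0 CPM. Control 3 is also the library with the highest neutrophil and monocyte markers. Leaving out any 1 of these libraries ended none of the 13 edgeR calls.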

How the results depend on the processing

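No paired analysis was possible because no replicate number occurs in both diets. Of all genes, DESeq2 called 65 lower, edgeR without the count filter 93, and a filter of a mean of at least 50 counts 8, against 39; leaving out 1 library gave 38 to 50. Genes called higher numbered 14 with limma-voom, 0 at a mean of 50 counts, 10 without the filter, 17 with a covariate for the rank of the animal number in its diet and 0 at an adjusted p under 0.01, against 5, and 2 to 13 without 1 library. Members called lower numbered 20 with DESeq2, 27 without the filter and 0 at a mean of 50 counts, which left 2 members to test; without 1 library they numbered 13 to 14. Members called higher were 0 under every alternative run. Low-count calls without 1 library ran from 0 to 36 lower and from 0 to 3 higher, and from 0 to 8 among members. Blnk changed sign without PLX5622 library 32, at -0.0030 (log2), in a range of -0.0030 to 0.16 without 1 library. By geometric means of CPM + 1, Fcrls kept 13.5% and Crybb1 31.0%; adding 1 raises low levels by construction. With 1 to 2 counts per CPM, a member under 50 counts per diet cannot be ranked closely.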
